A study of Mus musculus with 8 samples.

Results

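Notch signaling was followed through 10 genes in sorted alveolar epithelial cells of embryonic mouse lungs: the receptors Notch1, Notch2, Notch3 and Notch4, the ligands Dll1, Dll4, Jag1 and Jag2, and the target genes Hes1 and Hey1. They were picked by gene symbol, with earlier results of these data known, and all 10 were found among the 24568 genes of the array, on 15 of its 62976 spots. Total RNA of cells isolated by flow cytometry was amplified and hybridized to 8 single-color arrays. There were 4 groups with 2 biological replicates each: mutant AECI, WT AECI, mutant AECII and WT AECII. AECI are the flat type I cells across which gas is exchanged, and AECII are the type II cells that produce surfactant. In the mutant lungs, signaling through Fgfr2b, a receptor of fibroblast growth factors in epithelium, was inhibited in vivo between embryonic days 16.5 and 18.5. The alleles and the agent behind the inhibition, the treatment of the WT lungs, the strain, the sort markers and any pooling of embryos were not given in the sources used here.

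A Notch receptor sits in the membrane of one cell and is bound by a Delta-like or Jagged ligand on its neighbor. Binding leads to cleavage of the receptor, and its inner part enters the nucleus, where it joins the DNA-binding protein Rbpj and a Mastermind coactivator to switch on repressor genes of the Hes and Hey families. In the developing lung the pathway is best known for the choice between secretory and ciliated cells in the airways, and for its part in blood vessels and smooth muscle.

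Signals are deposited log2 intensities, and the median spot of every array had a signal of 5.01. A gene with several spots was represented by its brightest. Signals of different genes depend on their probes and are not compared. Differences are log2 differences with their standard error (SE), and adjusted p-values come from limma's test over all 24568 genes, with a threshold of 0.05. The sort was described with marker lists, chosen with earlier results of these data known, so they are no independent check of it. Of the type I markers, 14 of 15 were higher in AECI than in AECII in mutant lungs and 15 of 15 in WT lungs. Of the type II markers, 14 of 15 were lower in each. Airway markers went with the AECII sort. The mean signal of 14 ciliated cell markers was 6.40 to 6.93 in AECI arrays, against 9.62 to 10.24 in AECII arrays, and that of 11 club cell markers was 6.84 to 7.5, against 10.03 to 10.52. The array WT AECI replicate 1 stood apart by its basal cell markers, with a mean of 8.56 over 16 genes, against 5.42 to 6.24 in the other arrays. Replicate arrays correlated with r = 0.969 in mutant AECI, 0.962 in WT AECI, 0.977 in mutant AECII and 0.975 in WT AECII across genes, which are not independent replicates. In such sorted samples, fewer cells of a type and less RNA per cell cannot be told apart.

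The ligand genes Jag1 and Jag2 carried the differences between the populations, in opposite directions, and their promoters are shown for this reason. Both sequences are from RefSeq (GRCm38.p6) and hold the 250 bases before the start of transcription that the promoter table uses and, in capitals, the base at that start. The table gives 1 of several possible starts. For Jag1 it is the outer end of the annotated gene, whereas for Jag2 the annotated gene reaches farther upstream and contains the whole stretch shown. Jag1 lies on the minus strand at chr2:137116520-137116770 and Jag2 on the minus strand at chr12:112929495-112929745.
Jag1: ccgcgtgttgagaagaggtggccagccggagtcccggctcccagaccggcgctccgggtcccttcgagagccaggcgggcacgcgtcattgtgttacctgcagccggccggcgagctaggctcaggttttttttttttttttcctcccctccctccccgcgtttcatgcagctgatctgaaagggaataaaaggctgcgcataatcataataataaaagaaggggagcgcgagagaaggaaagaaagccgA
Jag2: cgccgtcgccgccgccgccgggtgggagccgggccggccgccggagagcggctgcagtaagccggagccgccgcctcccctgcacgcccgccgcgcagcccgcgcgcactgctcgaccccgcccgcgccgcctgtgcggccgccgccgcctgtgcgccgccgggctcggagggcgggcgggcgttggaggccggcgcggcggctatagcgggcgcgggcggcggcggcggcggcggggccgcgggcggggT
These stretches differed in composition, with a GC content of 57.0% and 20 CG dinucleotides for Jag1, and 86.9% and 54 for Jag2. A promoter window, from 250 bases before to 50 after the start, was found for 8 of the 10 genes (9 windows, 2 of them of Dll1). The target genes Hes1 and Hey1 had no window, so no motif was looked for in them. The core motif of Rbpj, TGGGAA, and its longer form GTGGGAA, which contains it, were in none of the 9 windows on either strand, and 25.6% and 6.4% of all 32851 windows held them. The N-box CACNAG, a motif bound by Hes proteins, had 3 matches in the window of Notch1, 2 in that of Notch3, 1 each in those of Notch2 and Dll4 and 1 in 1 window of Dll1. In Notch1 the matches at positions 248 and 250 of the window overlap and lie on opposite strands. The windows of Jag1, Jag2 and Notch4 had no N-box match, and 42.5% of all windows had one. A match in these letters describes the sequence and is no binding site.

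Comparing AECI with AECII asked how the Notch genes are distributed between the populations of the alveolar epithelium. Jag1 was lower and Jag2 was higher in AECI in each genotype, and of the receptors and targets none passed the test. In mutant lungs 2 of 10 Notch genes passed, 1 higher and 1 lower in AECI, against 7.8% of all genes (2.93% higher and 4.87% lower). In WT lungs 2 of 10 passed, again 1 higher and 1 lower, against 7.01% of all genes (2.87% higher and 4.14% lower). Over both genotypes 3 of 10 passed, 1 higher and 2 lower, against 14.8% of all genes (5.8% higher and 9.01% lower). With each array centered on its median gene, 48.4%, 47.1% and 51% of the calls over all genes in these 3 comparisons were positive, in place of 37.6%, 40.9% and 39.2%. The median absolute difference of the Notch genes was 0.28 in mutant lungs and 0.60 in WT lungs, and that of all genes was 0.46 and 0.43. The arrays of AECI and AECII did not overlap for 6 of 10 Notch genes in mutant lungs and 8 of 10 in WT lungs, while this held for 52.2% and 48.9% of all genes.

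Jag1 encodes Jagged1, a ligand with roles in vessels, bile ducts and airways. It had signals of 8.71 and 9.05 in mutant AECI and 11.75 and 11.92 in mutant AECII. In WT lungs it had 9.29 and 9.10 in AECI and 11.02 and 11.44 in AECII. All 4 AECI arrays lay more than 1 log2 unit below all 4 AECII arrays. Jag1 was thus lower in AECI by a log2 difference of -2.95 ± 0.28 in mutant lungs (7.75-fold, adjusted p = 0.0024) and of -2.04 ± 0.28 in WT lungs (4.10-fold, adjusted p = 0.0088). The WT call was lost without WT AECII replicate 2 (adjusted p = 0.0653), and over both genotypes the difference was -2.49 ± 0.20 (adjusted p = 0.0005). The 4 AECII arrays with high Jag1 were also those with high airway markers. Scgb1a1, the secretory protein of club cells, had 7.67 and 9.62 in mutant AECI, 9.54 and 8.89 in WT AECI, 15.78 and 15.75 in mutant AECII and 15.90 and 15.92 in WT AECII. Foxj1, the regulator of ciliated cells, had 7.57 and 6.02 in mutant AECI, 4.44 and 5.31 in WT AECI, 11.11 and 11.60 in mutant AECII and 10.96 and 11.75 in WT AECII. Of the club cell list 7 of 11 markers were lower in AECI in mutant lungs and 6 of 11 in WT lungs, and of the ciliated list 10 of 14 in each. The part of airway cells in the Jag1 difference was not tested.

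Jag2 encodes Jagged2, the other Jagged ligand, which was first known from limb and craniofacial development. It had signals of 7.75 and 6.99 in mutant AECI and 5.25 and 5.34 in mutant AECII. In WT lungs it had 8.43 and 8.08 in AECI and 5.43 and 4.72 in AECII. The AECII arrays thus stayed near the median spot, and the AECI arrays lay above all of them. Jag2 was higher in AECI by 2.08 ± 0.38 in mutant lungs (4.23-fold, adjusted p = 0.0206) and by 3.18 ± 0.38 in WT lungs (9.08-fold, adjusted p = 0.0051). The mutant call was lost without mutant AECI replicate 1 (adjusted p = 0.101) or mutant AECII replicate 1 or 2 (adjusted p = 0.108 each). The basal cell keratin Krt5 had 7.26 and 6.82 in mutant AECI, 12.30 and 4.77 in WT AECI, 3.29 and 3.70 in mutant AECII and 3.06 and 7.77 in WT AECII. It was thus highest by far on WT AECI replicate 1, the array with the highest Jag2. WT AECI replicate 2, with Jag2 at 8.08, had Krt5 at 4.77. On that array Trp63 (14.11), Dsg3 (5.54), Lor (6.75) and Sprr1a (8.18) of the list were above all AECII arrays. Krt15 (8.38), Krt13 (4.36) and Sbsn (7.76) were below all AECII arrays there. The mean of the 16 basal markers on that array was 5.89, within the 5.42 to 6.24 of the AECII arrays. Of the 16 basal markers 11 had a positive difference in mutant lungs and 13 in WT lungs, with none called in either genotype and 1 called higher in AECI over both. The part of basal cells in the Jag2 difference was not tested. Over both genotypes Jag2 was higher by 2.63 ± 0.27 (adjusted p = 0.0011).

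**Figure D1:**
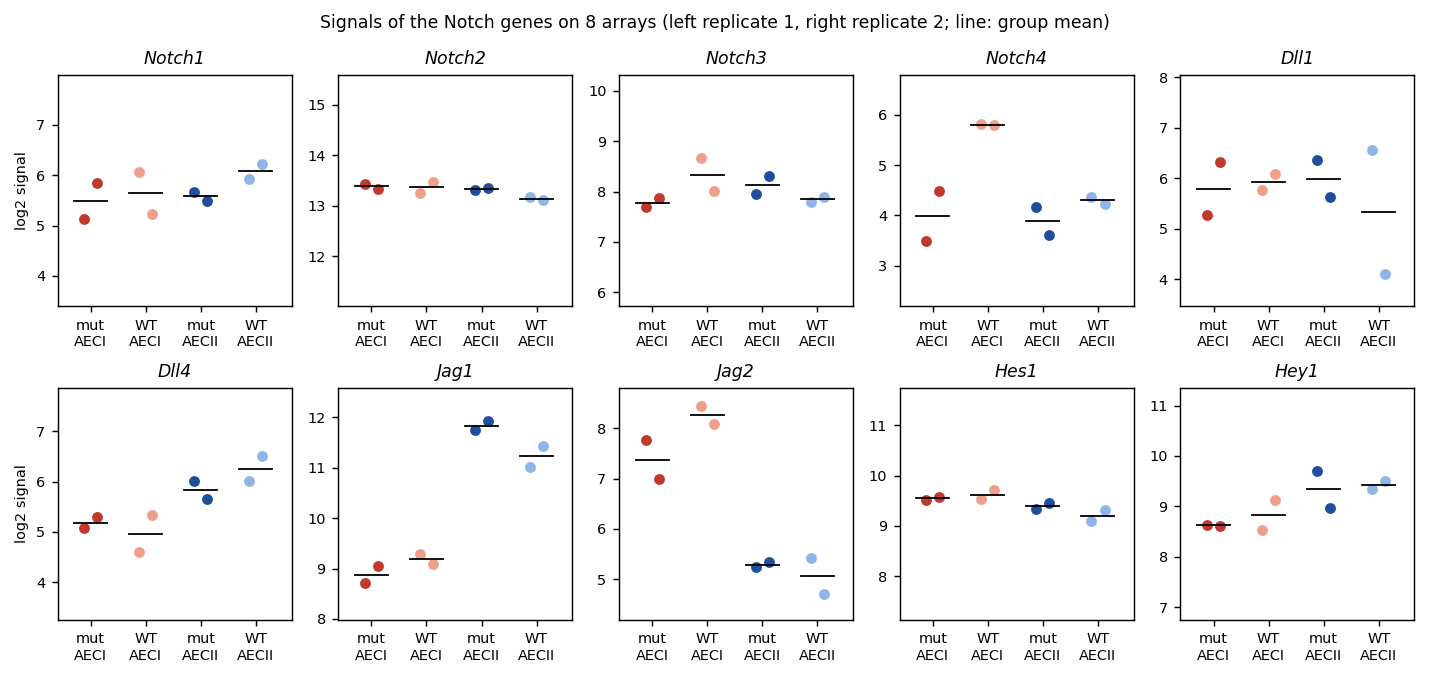
Log2 signals (vertical axis, each panel spanning the same range) of the 10 Notch genes by group, with replicate 1 left and replicate 2 right and a line at the group mean. Jag1 lies between 8.71 and 9.29 on the AECI arrays and between 11.02 and 11.92 on the AECII arrays, and Jag2 between 6.99 and 8.43 on the AECI arrays and between 4.72 and 5.43 on the AECII arrays.

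Of the Delta-like ligands, Dll4 was lower in AECI over both genotypes only, and Dll1 did not pass. Dll4, a ligand best known from the tip cells of growing vessels, had 5.07 and 5.31 in mutant AECI and 6.01 and 5.65 in mutant AECII. In WT lungs it had 4.59 and 5.33 in AECI and 6.01 and 6.50 in AECII. The AECI arrays were below the AECII arrays in both genotypes, but the difference did not pass the test in mutant lungs (-0.64 ± 0.35, adjusted p = 0.359) or WT lungs (-1.30 ± 0.35, adjusted p = 0.0841). Over both genotypes Dll4 was lower in AECI by a log2 difference of -0.97 ± 0.25 (adjusted p = 0.0437), a call that was lost when any array but WT AECI replicate 2 was left out, with either renormalization and with the trended and robust prior (adjusted p = 0.0686 to 0.137 in these fits). The mean of 14 endothelial markers was 4.78 to 5.70 in AECI arrays and 4.80 to 5.48 in AECII arrays, and 2 of them were called in each genotype, in opposite directions. Kdr, a receptor of vascular endothelial growth factor, was at 3.14 to 4.69 in AECI arrays, against 7.37 to 7.81 in AECII arrays, and so went the way of Dll4. Esam, an adhesion molecule, was at 8.56 to 9.72 in AECI arrays, against 6.30 to 7.20 in AECII arrays. The defining markers Pecam1 and Cdh5 were not called, and the part of endothelial cells in the Dll4 difference was not tested. Dll1 had 5.26 and 6.32 in mutant AECI, 5.76 and 6.08 in WT AECI, 6.36 and 5.63 in mutant AECII and 6.56 and 4.09 in WT AECII. Its WT AECII replicates were farther apart than those of any other group, and AECI and AECII overlapped in both genotypes.

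The receptor genes showed no difference between the populations that passed the test. Notch2 was bright and even on all arrays, with 13.42 and 13.34 in mutant AECI, 13.26 and 13.47 in WT AECI, 13.30 and 13.35 in mutant AECII and 13.16 and 13.11 in WT AECII. Its difference was 0.06 ± 0.24 in mutant lungs (95% confidence interval, CI, -0.51 to 0.62) and 0.23 ± 0.24 in WT lungs (95% CI -0.34 to 0.79), so that a 2-fold difference lay outside both intervals. Notch1, the receptor with the broadest roles, had 5.13 and 5.85 in mutant AECI, 6.06 and 5.23 in WT AECI, 5.66 and 5.49 in mutant AECII and 5.92 and 6.22 in WT AECII. Its differences, -0.09 ± 0.39 and -0.43 ± 0.39 in mutant and WT lungs, were within the spread of the replicates. Notch3, the receptor of vascular smooth muscle and pericytes, had 7.68 and 7.87 in mutant AECI, 8.67 and 8.0 in WT AECI, 7.95 and 8.30 in mutant AECII and 7.80 and 7.89 in WT AECII. Its difference had the opposite sign in the genotypes, -0.35 ± 0.31 in mutant lungs and 0.49 ± 0.31 in WT lungs, and neither passed the test. The mean of 15 markers of mesenchymal cells, pericytes and smooth muscle was 5.30 and 6.72 in mutant AECI and 5.19 and 6.10 in WT AECI. In AECII this mean was 6.68 and 5.02 in mutant lungs and 6.48 and 5.63 in WT lungs. None of these markers was called, and the part of mesenchymal cells in the Notch3 signals was not tested.

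Notch4, a receptor mainly of endothelium, had 3.49 and 4.49 in mutant AECI and 4.17 and 3.62 in mutant AECII. In WT lungs it had 5.82 and 5.79 in AECI and 4.37 and 4.23 in AECII. The WT AECI arrays were thus above the other 6. The difference between AECI and AECII was 0.10 ± 0.39 in mutant lungs and 1.51 ± 0.39 in WT lungs (adjusted p = 0.0704), and the WT difference passed without mutant AECI replicate 1 or 2 (adjusted p = 0.0415 each). Over both genotypes it was 0.80 ± 0.27 (adjusted p = 0.105, or 0.0423 without mutant AECI replicate 1). These values rest on 1 of 3 spots. A second spot with the same transcript accession had 3.73 and 3.6 in mutant AECI, 4.64 and 3.03 in WT AECI, 4.16 and 3.05 in mutant AECII and 4.11 and 4.47 in WT AECII. The remaining spot had 2.82 and 2.76 in mutant AECI, 2.55 and 3.46 in WT AECI, 3.20 and 3.11 in mutant AECII and 4.49 and 2.69 in WT AECII. In WT lungs the second spot gave -0.46 ± 0.59 and the remaining one -0.58 ± 0.59, so that neither was higher in AECI. The second spots of Notch1, Notch2 and Dll1 were dim as well, and no spot other than those of Jag1 and Jag2 passed the test in either genotype.

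**Figure D2:**
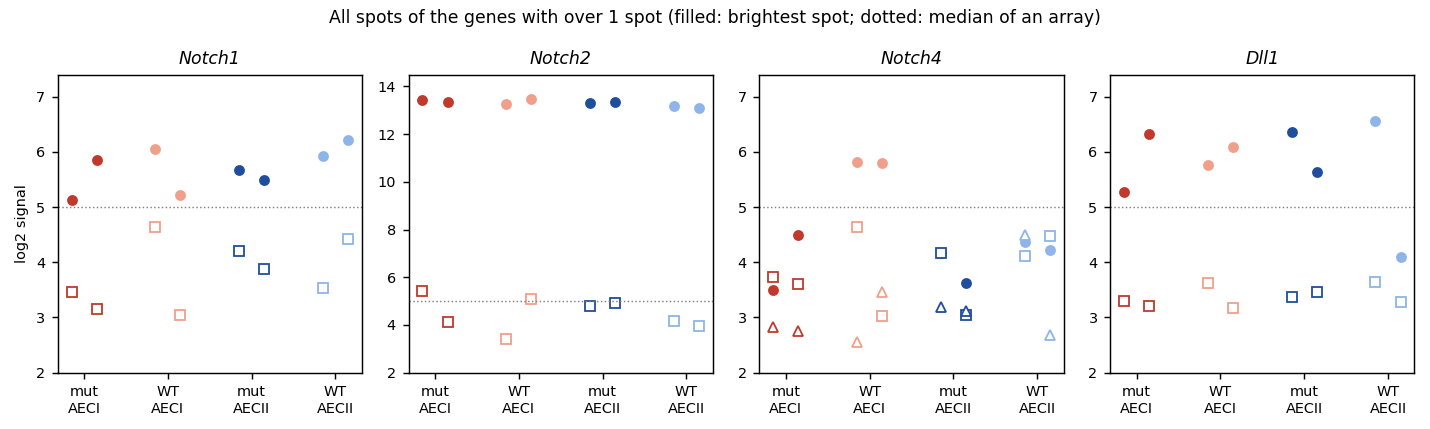
Log2 signals of every spot of the genes with more than 1 spot, by group, with filled circles for the brightest spot and open symbols for the others. The bright Notch2 spot lies between 13.11 and 13.47 on all arrays, and Notch4 is at 5.82 and 5.79 in WT AECI on its brightest spot only.

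Hes1 and Hey1, transcriptional repressors and the classic targets of the pathway, showed small differences. Hes1 had 9.52 and 9.58 in mutant AECI and 9.33 and 9.45 in mutant AECII. In WT lungs it had 9.53 and 9.70 in AECI and 9.09 and 9.31 in AECII. All 4 AECI arrays were above all 4 AECII arrays, and 22% of all genes had such a separation in one direction or the other. The difference was 0.16 ± 0.25 in mutant lungs (95% CI -0.42 to 0.74) and 0.42 ± 0.25 in WT lungs (95% CI -0.16 to 1.0), and it did not pass over both genotypes (0.29 ± 0.17, adjusted p = 0.339). Hey1 had 8.63 and 8.61 in mutant AECI and 9.71 and 8.97 in mutant AECII. In WT lungs it had 8.53 and 9.12 in AECI and 9.34 and 9.50 in AECII. It was lower on the AECI arrays within each genotype, by -0.72 ± 0.35 in mutant lungs (adjusted p = 0.295) and -0.59 ± 0.35 in WT lungs (adjusted p = 0.415), and did not pass over both genotypes (-0.66 ± 0.24, adjusted p = 0.134).

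**Figure D3:**
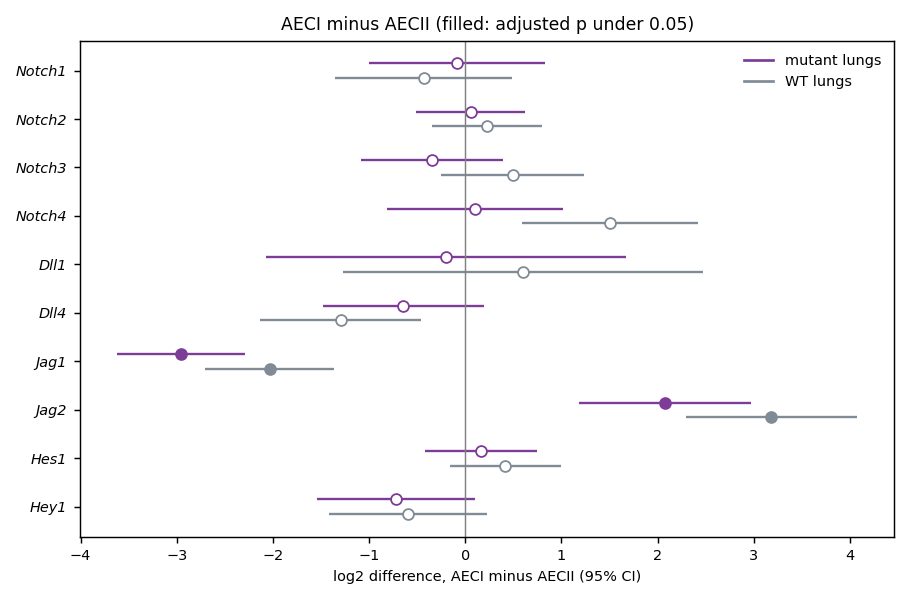
Log2 difference of AECI minus AECII (horizontal axis) with its 95% CI for the 10 Notch genes in mutant and WT lungs, with filled points where limma's adjusted p was under 0.05. Jag1 is at -2.95 and -2.04 and Jag2 at 2.08 and 3.18, and the other 8 genes have open points.

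The remaining components of the pathway were read from fixed lists of 66 genes, of which 64 were measured. In mutant lungs 1 of the 64 was higher and 5 were lower in AECI, beside 2.93% and 4.87% of all genes. In WT lungs there were again 1 and 5, beside 2.87% and 4.14%, and over both genotypes 2 and 7, beside 5.8% and 9.01%. These counts are a description of the lists. Among 5 atypical ligands, Dlk1 and Dlk2, which lack the domain that activates the receptor, moved in opposite directions. Dlk2 had 11.61 and 11.16 in mutant AECI, 11.84 and 10.72 in WT AECI, 7.84 and 8.0 in mutant AECII and 7.21 and 7.33 in WT AECII, and was higher in AECI by 3.46 ± 0.40 and 4.02 ± 0.40 (adjusted p = 0.0044 in mutant and 0.0032 in WT lungs). Dlk1 had 12.92 and 13.25 in mutant AECI, 14.67 and 14.30 in WT AECI, 15.76 and 15.87 in mutant AECII and 15.88 and 15.84 in WT AECII. Its AECII signals lay near the highest value of the table, 15.99, where the scale ends. Its difference was -2.73 ± 0.27 in mutant lungs (adjusted p = 0.0026) and -1.38 ± 0.27 in WT lungs (adjusted p = 0.0278), and the WT call was lost without any WT array or either mutant AECII array (adjusted p = 0.0538 to 0.133).

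Neurl1b, a ubiquitin ligase that acts on Notch ligands, was the only called member of 10 glycosyltransferases and ligand ubiquitin ligases. It had 4.31 and 5.46 in mutant AECI, 4.33 and 4.20 in WT AECI, 7.55 and 8.33 in mutant AECII and 7.07 and 8.10 in WT AECII, and was lower in AECI by -3.05 ± 0.52 and -3.32 ± 0.52 (adjusted p = 0.0169 in mutant and 0.0129 in WT lungs). The mutant call was lost without mutant AECI replicate 1 or either mutant AECII array (adjusted p = 0.0526 to 0.11), and the WT call without either WT AECI array or WT AECII replicate 2 (0.0518 to 0.0823). With the mean of all its spots the difference was -1.62 in mutant lungs and -1.65 in WT lungs, and both calls held (0.0319 each). Of 10 genes of receptor endocytosis and degradation, Dtx4, a Deltex ubiquitin ligase, had 8.52 and 8.90 in mutant AECI, 9.58 and 9.25 in WT AECI, 10.85 and 11.17 in mutant AECII and 11.03 and 10.62 in WT AECII. It was lower in AECI by -2.30 ± 0.30 in mutant lungs (adjusted p = 0.0064, or 0.0559 without mutant AECII replicate 2) and -1.41 ± 0.30 in WT lungs (adjusted p = 0.039, or 0.0538 to 0.185 without any 1 of the 8 arrays). Over both genotypes the ubiquitin ligase Itch was higher by 0.86 ± 0.20 (adjusted p = 0.0297), a call that was lost without any 1 array (adjusted p = 0.0506 to 0.102) and with the mean of all its spots (0.293). None of the 9 measured proteases that cleave the receptor passed in any of these comparisons. Their differences were positive for 7 in mutant lungs, 8 in WT lungs and all 9 over both genotypes, with a median of 0.28 over both. The median of all genes was 0.01.

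In the nuclear complex, 4 of 19 measured genes were lower in AECI over both genotypes, beside 9.01% of all genes. Rbpjl, a paralog of Rbpj, had 9.94 and 9.96 in mutant AECI, 10.94 and 10.83 in WT AECI, 11.69 and 12.01 in mutant AECII and 12.10 and 11.70 in WT AECII (difference in mutant lungs -1.90 ± 0.27, adjusted p = 0.0087). Its WT difference of -1.02 ± 0.27 did not pass (adjusted p = 0.0792), and the mutant call was lost without mutant AECI replicate 1 (0.0513) or mutant AECII replicate 2 (0.0698). Maml3, a Mastermind coactivator, was lower by -1.78 ± 0.37 and -1.92 ± 0.37 (adjusted p = 0.033 in mutant and 0.0263 in WT lungs), calls that were lost without any mutant array (0.0954 to 0.18) and without WT AECI replicate 2 or either WT AECII array (0.0634 to 0.15). The corepressor gene Tle1 was lower by -1.21 ± 0.25 in WT lungs (adjusted p = 0.0337, or 0.0564 to 0.149 without any 1 array). With the mean of all its spots the Tle1 difference was -0.78 (0.181) in WT lungs and -0.63 (0.0863) over both genotypes, and neither passed. The coactivator gene Ep300 was lower over both genotypes (-0.80 ± 0.21, adjusted p = 0.0483, or 0.0632 to 0.149 without any 1 array), but with the mean of all its spots the difference was 0.30, and the call was also lost with either renormalization or the trended and robust prior (0.0853 to 0.103). With only the 4 arrays of a comparison in the fit, the calls of Dlk1, Dtx4, Maml3 and Tle1 in WT lungs and of Maml3 in mutant lungs were lost (0.0524 to 0.111). The 11 further targets of the Hes, Hey and Nrarp families included no called gene.

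**Figure D4:**
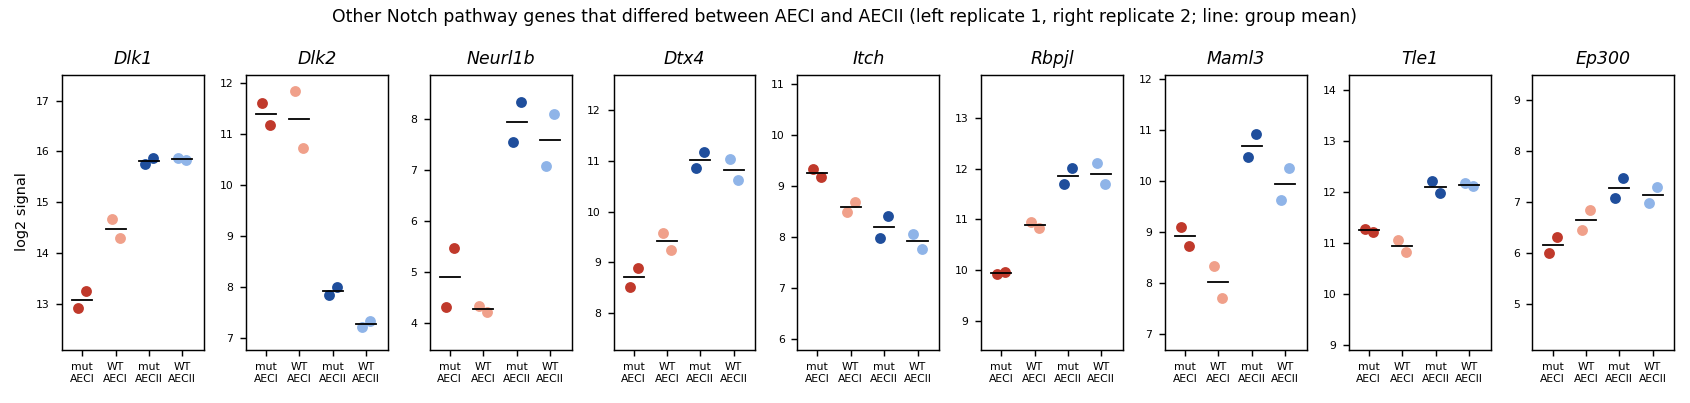
Log2 signals of the 9 further pathway genes that passed the test between AECI and AECII in any comparison, by group, with replicates side by side and a line at the group mean. Dlk2 and Itch lie higher on the AECI arrays, and the other 7 genes lie lower.

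Mutant lungs were compared with WT lungs to ask whether inhibition of Fgfr2b signaling was accompanied by a change in the Notch genes. In AECI none of the 10 Notch genes passed the test, against 0.0163% of all genes (4), and in AECII none, against 0.0122% (3). At an unadjusted limma p under 0.05 there were 1 of 10 Notch genes in AECI, against 7.64% of all genes (1878), and 0 in AECII, against 4.41% (1084). The arrays of mutant and WT lungs did not overlap for 4 Notch genes in AECI and 7 in AECII, while this held for 35.4% and 35.7% of all genes. Over both populations they overlapped for all 10, and did not overlap for 2.55% of all genes. Of 4 measured sex-linked genes, 2 were called in each population and 3 over both. Xist was at 3.50 to 5.14 in mutant arrays, against 12.44 to 13.17 in WT arrays, Uty at 6.71 to 7.47, against 2.72 to 3.24, and Eif2s3y at 10.47 to 11.05, against 3.67 to 5.86. Kdm5d, at 12.17 to 12.75 in mutant arrays, against 11.95 to 12.62 in WT arrays, was not called. On every mutant array Xist was thus low and Uty and Eif2s3y were high, and on every WT array the reverse held. Genotype and the sex pattern of these 3 genes cannot be told apart in the comparisons of mutant with WT lungs.

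Notch4 in AECI was the Notch gene with the smallest p-value. On its brightest spot it was at 3.49 and 4.49 in mutant AECI, against 5.82 and 5.79 in WT AECI, a difference of -1.81 ± 0.39 (limma adjusted p = 0.379), and at 4.17 and 3.62 in mutant AECII, against 4.37 and 4.23 in WT AECII (-0.41 ± 0.39). The other 2 spots differed by -0.17 ± 0.59 and -0.22 ± 0.59 in AECI. The interaction, that is the mutant effect in AECI minus that in AECII, was -1.41 ± 0.54 (limma adjusted p = 0.999), and 0% of all genes (0) passed for it. Over both populations Notch4 differed by -1.11 ± 0.27 (adjusted p = 0.534), where 0.0448% of all genes (11) passed.

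The Jagged ligands did not pass either. Jag2 was lower on both mutant AECI arrays, 7.75 and 6.99, against 8.43 and 8.08 in WT AECI, by -0.88 ± 0.38 (95% CI -1.78 to 0.01, adjusted p = 0.655). Jag1 was at 11.75 and 11.92 in mutant AECII, against 11.02 and 11.44 in WT AECII, a difference of 0.61 ± 0.28 (95% CI -0.06 to 1.27, adjusted p = 0.998), and its difference in AECI was -0.31 ± 0.28. The interaction was -0.92 ± 0.40 for Jag1 and -1.10 ± 0.53 for Jag2 (limma adjusted p = 0.999 each). The marker lists moved with genotype too, with no marker called. In AECII, mutant minus WT was positive for 15 of 15 type I markers (median 1.22) and 8 of 15 type II markers (median 0.02). In AECI it was positive for 14 of 15 type I markers (median 0.23) and 1 of 15 type II markers (median -0.80). The part of these marker shifts in the values of Jag1 and Jag2 was not tested. Hes1 differed by -0.07 ± 0.25 in AECI (95% CI -0.65 to 0.51) and by 0.19 ± 0.25 in AECII (95% CI -0.39 to 0.77), so that a 2-fold change of this target lay outside both intervals. Hey1 differed by -0.20 ± 0.35 in AECI and -0.08 ± 0.35 in AECII, and Notch2 by 0.02 ± 0.24 and 0.19 ± 0.24. For Dll1 the interval in AECII ran over -1.20 to 2.54, wide enough to hold changes of more than 2-fold in either direction. None of the other 64 pathway genes passed in any comparison of mutant with WT lungs.

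**Figure D5:**
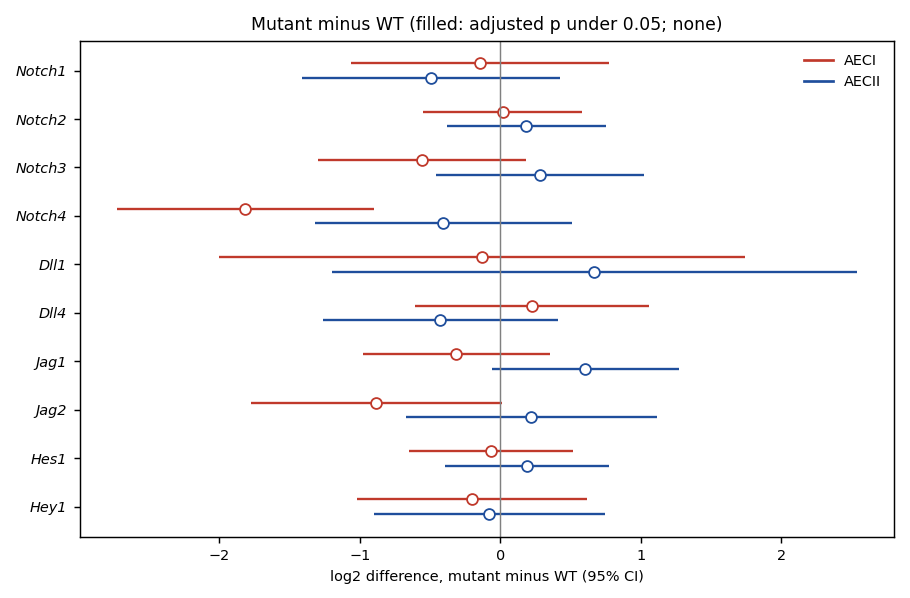
Log2 difference of mutant minus WT (horizontal axis) with its 95% CI for the 10 Notch genes in AECI and AECII, with open points throughout because none passed the test. Notch4 in AECI, at -1.81, is the only gene whose interval lies wholly to one side of 0.

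The genes whose centered signals over the 8 arrays were most like those of a called ligand were found by the root mean square difference, as a description. For Jag1 they were Slx4ip (0.163), Zc3h8 (0.206) and Acss1, a mitochondrial acetyl-CoA synthetase (0.209). For Jag2 they were Ndnf (0.221), Gm8909 (0.327) and Fjx1 (0.339), and for Dll4 they were Zfp87 (0.106), Atp6v1c1, a subunit of the vacuolar proton pump (0.123), and Tmem116 (0.15).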

How the data were processed

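Total RNA of sorted AECI and AECII was amplified and labeled with Cy5 with Agilent reagents, per the labels. The authors deposited normalized log2 signals: all arrays shared the same quantiles (median 5.01), and the log base was read from the highest value, 15.99, near the limit of a 16-bit scanner. The submitters' processing notes name limma. Background correction, detection limits and slides were not given in the sources used here, so a dim signal has no stated floor. With 2 arrays per group the array number limits the precision, and quantile normalization removes any change in total RNA.

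Gene symbols came from the platform annotation (43941 of 62976 spots had 1 symbol, 0 several and 19035 none), and 1424 were updated through RefSeq accessions (GRCm38.p6). After leaving out 57 named spots with a missing value, each gene was its brightest spot by the mean of 8 arrays (24568 genes). Group means of all 8 arrays were fitted with lmFit and eBayes (limma 3.58.1, R 4.3.3; two-sided, Benjamini-Hochberg over all genes, threshold 0.05), with 4 residual and 2.87 prior degrees of freedom. There were 7 comparisons. Named were all 10 Notch genes, up to 4 called genes of each other pathway list, the first 2 and any relevant markers of a cell type, and the 3 genes most like each called Notch gene among genes at or above the median. The Notch genes and all lists were chosen with earlier results of these data known. Figures used matplotlib 3.10.9 and pandas 2.3.3 in Python 3.11.15. The alternatives were median centering, quantile normalization, leaving out the dimmest 50% of genes, the mean of all spots, every spot alone, a trended and robust prior, a block for the replicate number, a fit of only the 4 arrays compared, and leaving out each array; a lone array was then assumed to vary like the other groups.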

Additional observations from a re-analysis of the deposited data

How the results depend on the processing

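Of 724 values of single Notch genes under the alternatives, 680 kept their direction and side of the threshold, 15 lost and 3 gained the call, and 26 changed sign, none of them a called value. Of 306 values of further pathway genes, whose alternatives were chosen after seeing their calls, 234 were kept, 71 lost the call and 1 changed sign. The calls of Itch and Ep300 over both genotypes and of Tle1 and Dtx4 in WT lungs were lost on leaving out any array. Dim genes have no detection limit here. Median centering moved all AECI minus AECII differences by 0.172 in mutant lungs, 0.102 in WT lungs and 0.137 over both genotypes, and those of mutant minus WT in AECI by 0.106. The cause of the changes below was not tested.

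Notch genes called numbered 1 to 2 in mutant lungs and 1 to 3 in WT lungs on leaving out each array, against 2 in each. All genes called by AECI minus AECII then numbered 626 to 1932 in mutant lungs, 527 to 1565 in WT lungs and 2374 to 3302 over both genotypes. By mutant minus WT they numbered 0 to 19 in AECI, 0 to 11 in AECII and 3 to 11 over both populations, and 0 to 1 for the interaction. The trended and robust prior gave 2904 and 2587 genes for AECI minus AECII in mutant and WT lungs, and 25, 8 and 27 for mutant minus WT in AECI, in AECII and over both. With only the 4 arrays compared there were 822 for AECI minus AECII in WT lungs and 0 for mutant minus WT in AECI. Without the dimmest 50% of genes, mutant minus WT gave 2, 1 and 3.

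Deviations of same-numbered arrays from their group means correlated at -0.069 to 0.028 between groups, over all genes. These correlations cannot show whether samples with the same replicate number were paired or shared a batch. With the replicate block, mutant minus WT gave 0, 0 and 4 genes in AECI, in AECII and over both, and 7 calls of AECI minus AECII were lost (adjusted p = 0.0535 to 0.0738): Dll4 and Itch over both genotypes, Dlk1, Dtx4, Maml3 and Tle1 in WT lungs, and Maml3 in mutant lungs.

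The sign changes for AECI minus AECII in mutant lungs were Notch1 with centering (0.0855) and quantile normalization (0.0743), Notch2 with quantile normalization (-0.0313) and the mean of all spots (-0.0112), and Notch4 with the mean of all spots (-0.0688). For mutant minus WT in AECI they were Notch2 with quantile normalization (-0.14) and Hes1 with centering (0.0383), and over both genotypes Ep300 with the mean of all spots (0.30). On leaving out each array, the ranges that crossed 0 were, for AECI minus AECII in mutant lungs, -0.45 to 0.27 for Notch1, -0.40 to 0.59 for Notch4 and -0.73 to 0.32 for Dll1, and in WT lungs -0.63 to 1.83 for Dll1. For mutant minus WT in AECI they were -0.56 to 0.27 for Notch1, -0.0918 to 0.125 for Notch2, -0.66 to 0.39 for Dll1, -0.14 to 0.59 for Dll4, -0.154 to 0.0189 for Hes1 and -0.497 to 0.0916 for Hey1. In AECII they were -0.56 to 1.90 for Dll1, -0.14 to 0.58 for Jag2 and -0.45 to 0.29 for Hey1.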

Other observations

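The gene most like Jag1, Slx4ip, is also its neighbor on chromosome 2 in the RefSeq annotation, which was looked at after the likeness was seen. Slx4ip, which encodes a partner of a DNA repair nuclease scaffold, had 7.31 and 7.23 in mutant AECI, 7.87 and 7.67 in WT AECI, 10 and 10.57 in mutant AECII and 9.46 and 9.91 in WT AECII. It was lower in AECI by a log2 difference of -3.02 ± 0.31 in mutant lungs (limma adjusted p = 0.0028) and -1.91 ± 0.31 in WT lungs (adjusted p = 0.0143). Btbd3, the measured gene on the other side of Jag1, differed by -0.16 ± 0.27 and -0.24 ± 0.27 and was not called. Among the nearest measured protein-coding neighbors on either side of the 10 Notch genes, only Slx4ip and Mrps28 were called in these comparisons. Of all genes, 7.8% were called in mutant lungs and 7.01% in WT lungs, so these calls are no more than a description. Mrps28, a mitochondrial ribosomal protein gene beside Hey1, differed by -2.92 ± 0.31 in mutant lungs and -2.28 ± 0.31 in WT lungs, while Hey1 itself did not pass. The positions of the probes within these genes were not given in the sources used here.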
